A study of Rattus norvegicus with 8 samples.

Results

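Transcripts of 5 genes of synaptic vesicle release, Syt1, Snap25, Syn1, Vamp2 and Slc17a7, were followed in the hippocampus of aged female rats after an adenovector had been injected into the brain ventricles. The genes were taken as a list of 5 Ensembl gene IDs paired with their symbols, 5 of the 26405 IDs in the count table. The list uses no measured value, though it was chosen with earlier results of these data known. Each gene was abundant enough to be among the 14522 IDs tested. All 8 rats were Sprague-Dawley females aged 28 months. In the IGF1 group, 4 rats received an adenovector that expressed rat IGF-I, a peptide growth factor with trophic actions on neurons. In the DsRed group, 4 rats received a placebo adenovector, named in the labels for the red fluorescent protein DsRed. All animals were therefore old and had received a vector, and no young or uninjected rats are among these samples. The labels do not name the promoter of either vector or the cells that took it up. A library holds RNA of all cell types in 1 rat's right hippocampus, so n counts rats.

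Neurons store transmitter in vesicles at the presynaptic terminal and release it when calcium enters. Syt1 encodes synaptotagmin 1, the vesicle protein that senses calcium for fast release. Vamp2 encodes synaptobrevin 2, the SNARE protein on the vesicle, and Snap25 encodes its SNARE partner on the plasma membrane, which together with syntaxin pull the membranes into fusion. Syn1 encodes synapsin I, a phosphoprotein that tethers vesicles in the reserve pool. Slc17a7 encodes VGLUT1, the transporter that loads glutamate into vesicles and marks many excitatory neurons of the hippocampus and cortex. In bulk tissue, fewer cells of a type and less RNA per cell cannot be told apart.

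The promoters of Syn1 and Slc17a7 are shown because these were the pair with the highest correlation across all 8 rats, an order that depended on single rats, as given below. RefSeq start sites on the rat build GRCr8 were available for 4 of the 5 genes (Syt1, Syn1, Vamp2 and Slc17a7), and the 250 bases before each start were searched on both strands. The Syn1 stretch is chrX:3725495-3725744, plus strand, and the Slc17a7 stretch is chr1:104785955-104786171, plus strand, which ends before the first annotated start of that gene. Capitals mark matches to GCGGGGGCG (EGR motif) and TGACGTCA (cyclic AMP response element) in Syn1, and to GGGCGG (GC box) in Slc17a7.
Syn1: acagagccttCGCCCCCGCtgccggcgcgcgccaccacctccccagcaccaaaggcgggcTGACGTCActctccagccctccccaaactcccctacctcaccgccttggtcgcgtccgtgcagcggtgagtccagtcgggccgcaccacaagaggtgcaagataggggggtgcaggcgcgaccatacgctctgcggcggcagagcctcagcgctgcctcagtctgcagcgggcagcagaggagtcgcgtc
Slc17a7: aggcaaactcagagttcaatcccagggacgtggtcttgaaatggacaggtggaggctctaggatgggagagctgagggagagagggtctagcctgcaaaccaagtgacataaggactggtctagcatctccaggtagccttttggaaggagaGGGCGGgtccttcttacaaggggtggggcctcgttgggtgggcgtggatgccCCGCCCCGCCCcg
The Syn1 stretch held 1 cyclic AMP response element, at bases 61 to 68, a motif present in 1.59% of the 33469 promoters searched. It also held 1 EGR motif, on the minus strand at bases 11 to 19, a motif that Syt1 and Vamp2 matched as well and that 2.45% of all promoters held. The GC box, which can overlap the EGR motif, occurred 3 times each in Slc17a7, Syt1 and Vamp2 and not in Syn1, and in 30.5% of all promoters. In Slc17a7 it lay at bases 153 to 158, 205 to 210 and 210 to 215, the last pair sharing 1 base. None of the 4 stretches held TATAAA (12.9% of promoters), CACGTG (5.59%) or TTCAGCACC, the left part of the element bound by the repressor REST (0.305%). A motif that lies before these 250 bases, or is cut by their edge, would not have been found, so absence holds for this window only. Over the same 250 bases the G and C content was 69.6% for Syn1, 68.0% for Vamp2, 66.0% for Syt1 and 61.2% for Slc17a7, against a median of 51.2% for all promoters. The 2 printed stretches shared none of the 6 motifs. These are matches of letters in this window and were not tested for binding or activity.

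Reads assigned to genes numbered between 16347636 and 27377086 per library, and 30.7% to 32.9% of tabulated reads fell outside annotated features. The 5 genes together took between 0.552% and 0.628% of the gene reads, with 7921 reads for the least covered value (Syn1 in DsRed replicate 1) and 58314 for the most covered (Slc17a7 in DsRed replicate 2). Counting error was therefore small beside the spread between rats. Levels are given in CPM, that is, counts scaled to a common library size by TMM (trimmed mean of M values, in edgeR). CPM is not corrected for transcript length, so levels are compared between rats and not between genes. One library, IGF1 replicate 1, stood apart across all genes, with a mean Spearman correlation of 0.986 with the others, against 0.991 to 0.994 for the rest. The tissue label could not be checked against marker genes, and the vector's gene Igf1 and the rest of the release pathway were not analysed here, since the sources used here pair no other ID with a symbol.

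For none of the 5 release genes was a difference between IGF1 and DsRed rats detected beyond the spread between animals. Fitted levels of Snap25 and Vamp2 were higher with IGF-I and those of Syt1, Syn1 and Slc17a7 lower, with log2 fold changes between -0.07 and 0.13. Of the 5 genes 0 passed an adjusted p of 0.05 by edgeR's quasi-likelihood test, as did 0% of the 14522 IDs tested. At an unadjusted p under 0.05 in that test there were also 0 of the 5, against 6.6% of all IDs, and 0 of the 5 had groups that did not overlap, against 4.71% of all IDs. Other tests of the same 14522 IDs made 0 calls (limma voom), 11 (edgeR's exact test) or 11 (its likelihood ratio test). DESeq2 made 13 over 20653 IDs, since it was run without the low count filter. None of the 5 genes was among these calls. The median log2 fold change of the 5 was -0.02, against 0.0027 for all IDs tested, and the median absolute value 0.07 against 0.08. The 95% intervals of the 5 fold changes ran from 0.837 (Slc17a7) to 1.24 (Snap25) at their outermost, so changes beyond these bounds lay outside all 5 intervals. Single intervals were narrower, such as 0.851 to 1.07 for Syt1. Changes inside a gene's own interval could not be resolved with 4 rats a group.

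**Figure D1:**
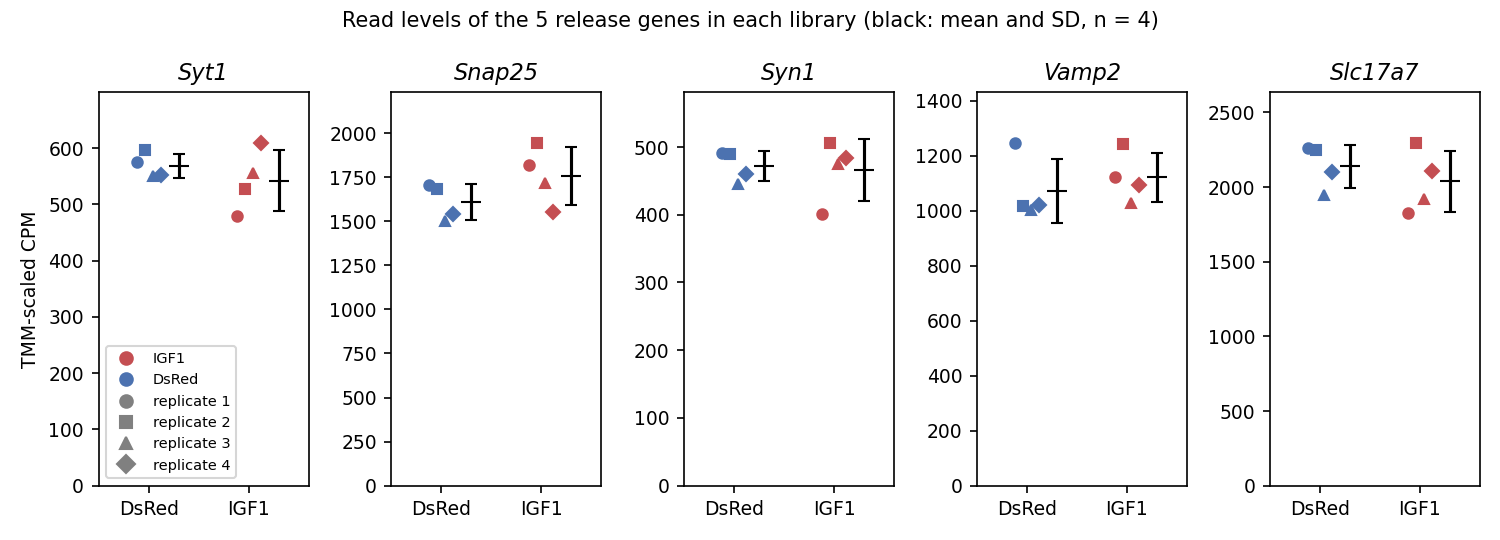
Level of each gene in each library, in TMM-scaled CPM on a linear axis from 0, with DsRed libraries in blue, IGF1 libraries in red, a marker shape for each replicate number, and the group mean and SD (n = 4) in black. The groups overlap for all 5 genes, and the highest library is at most 1.29 times the lowest.

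Syt1 (ENSRNOG00000006426), the calcium sensor, read 479, 527, 555 and 609 CPM across IGF1 replicates 1 to 4, against 575, 597, 550 and 552 CPM across DsRed replicates 1 to 4. The IGF1 rats thus held both the lowest and the highest level, and the DsRed rats lay between them. The means were 542 ± 54.2 CPM with IGF-I and 569 ± 21.8 CPM with DsRed (SD, n = 4 each). The log2 fold change was -0.07 (standard error 0.07, 95% interval -0.23 to 0.10). The adjusted p was 0.838 by edgeR's quasi-likelihood test. An exact two-sided permutation of the log2 CPM gave p = 0.457. Without IGF1 replicate 1, the library that stood apart, the log2 fold change was -0.01, with an adjusted p of 0.987 by that edgeR test. Without IGF1 replicate 4 it was -0.13, with an adjusted p of 0.542 (0.0888 unadjusted), and these were the ends of the range over the 8 libraries left out in turn.

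Snap25 (ENSRNOG00000006037), the plasma membrane SNARE, showed the largest fitted difference of the 5. It read 1819, 1941, 1717 and 1551 CPM across IGF1 replicates 1 to 4, against 1702, 1684, 1500 and 1538 CPM across DsRed replicates 1 to 4. IGF1 replicates 1, 2 and 3 lay above every DsRed library, while IGF1 replicate 4 lay among the lower DsRed values. The means were 1757 ± 165 CPM and 1606 ± 102 CPM (SD, n = 4 each), a fitted difference of 9.38% with a 95% interval from -3.24% to 23.6%. The log2 fold change was 0.13 (standard error 0.08), with an adjusted p of 0.752 (0.134 unadjusted) by edgeR's quasi-likelihood test. The exact permutation p was 0.143. Without IGF1 replicate 4 the log2 fold change was 0.19, with an unadjusted p of 0.0327 and an adjusted p of 0.503 by that edgeR test. Without IGF1 replicate 2 it was 0.08, with an adjusted p of 0.821, and without IGF1 replicate 1 it was 0.11.

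Vamp2 (ENSRNOG00000006989), the vesicle SNARE, read 1121, 1241, 1028 and 1095 CPM across IGF1 replicates 1 to 4, against 1245, 1015, 1003 and 1019 CPM across DsRed replicates 1 to 4. DsRed replicate 1 was the highest of all 8, while the other 3 DsRed libraries lay below every IGF1 library. The means were 1121 ± 89.1 CPM and 1071 ± 116 CPM (SD, n = 4 each). The log2 fold change was 0.07 (standard error 0.09, 95% interval -0.13 to 0.26). The adjusted p was 0.874 by edgeR's quasi-likelihood test, and the exact permutation p was 0.486. Without DsRed replicate 1 the log2 fold change was 0.15, with an unadjusted p of 0.0732 and an adjusted p of 0.826 by that edgeR test. Without IGF1 replicate 2 it was 0.0152, with an adjusted p of 0.981 (0.863 unadjusted), and without IGF1 replicate 1 it was 0.07.

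Syn1 (ENSRNOG00000010365), the synapsin of the reserve pool, read 401, 505, 475 and 483 CPM across IGF1 replicates 1 to 4, against 492, 490, 446 and 460 CPM across DsRed replicates 1 to 4. Apart from IGF1 replicate 1, which was the lowest of the 8, the levels of the 2 groups were intermixed. The means were 466 ± 45.3 CPM and 472 ± 22.5 CPM (SD, n = 4 each). The log2 fold change was -0.02 (standard error 0.07, 95% interval -0.19 to 0.15). The adjusted p was 0.966 by edgeR's quasi-likelihood test, and the exact permutation p was 0.829. Its sign turned without IGF1 replicate 1, to 0.05 with an adjusted p of 0.898 by that edgeR test, and also without DsRed replicate 1 (0.00201) or DsRed replicate 2 (0.000528), while without IGF1 replicate 2 it was -0.058.

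Slc17a7 (ENSRNOG00000020650), the vesicular glutamate transporter, read 1829, 2293, 1920 and 2108 CPM across IGF1 replicates 1 to 4, against 2260, 2245, 1949 and 2102 CPM across DsRed replicates 1 to 4. IGF1 replicates 1 and 3 were the lowest of the 8 and IGF1 replicate 2 the highest. The means were 2038 ± 206 CPM and 2139 ± 145 CPM (SD, n = 4 each). The log2 fold change was -0.07 (standard error 0.08, 95% interval -0.26 to 0.12). The adjusted p was 0.854 by edgeR's quasi-likelihood test, and the exact permutation p was 0.486. Without IGF1 replicate 1 the log2 fold change was -0.02, with an adjusted p of 0.982 by that edgeR test. Without IGF1 replicate 2 it was -0.13, with an adjusted p of 0.738 (0.125 unadjusted).

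**Figure D2:**
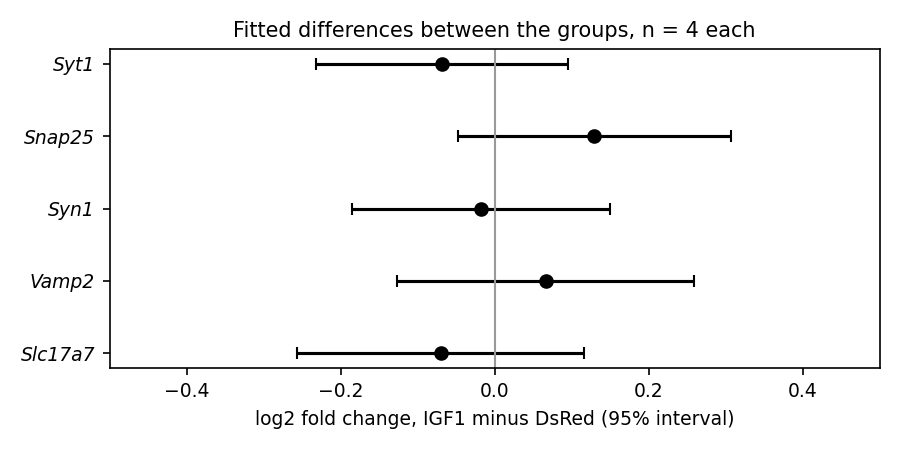
Log2 fold change of each gene, IGF1 minus DsRed, from the quasi-likelihood fit (points) with its 95% interval (bars), 4 libraries per group. Every interval includes 0, and Snap25 at 0.13 lies farthest from it.

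Among themselves the 5 genes varied to a similar extent. The coefficient of variation over the 8 libraries was 7.33% for Syt1, 8.95% for Snap25, 7.09% for Syn1, 9.09% for Vamp2 and 8.32% for Slc17a7. The median was 6.30% for the tenth of tested IDs with the most reads, to which all 5 belong. Within groups the coefficient of variation was larger in the IGF1 rats for 4 genes, such as Syt1 with 9.98% against 3.84% and Syn1 with 9.71% against 4.77%. Vamp2 had the opposite order, 7.95% against 10.9%. Differences in spread between the groups were not tested.

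**Figure D3:**
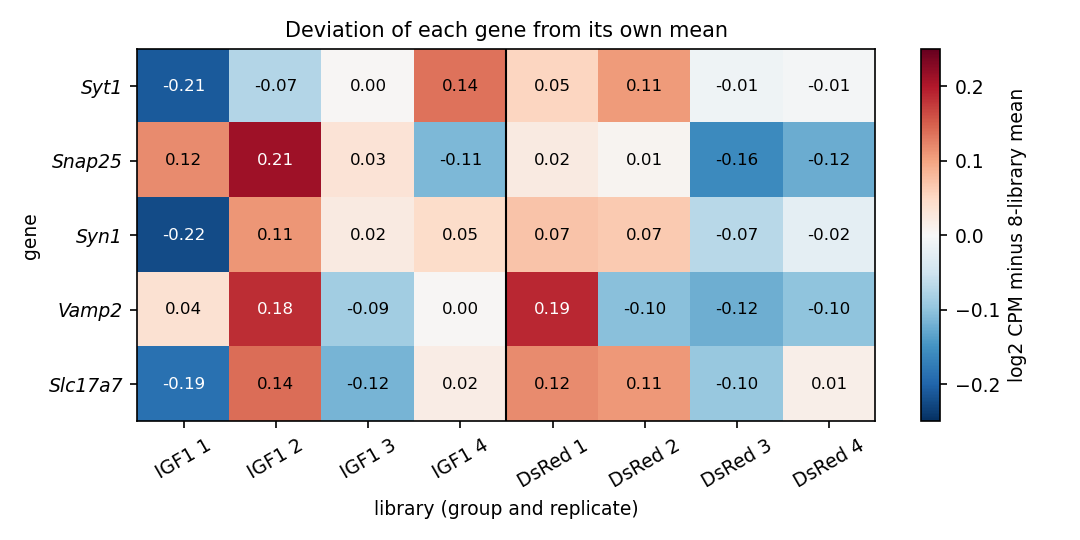
Deviation of each gene (rows) in each library (columns) from its own mean over the 8 libraries, in log2 CPM, red above and blue below the mean. In IGF1 replicate 1 Syt1, Syn1 and Slc17a7 lie at -0.21, -0.22 and -0.19 while Snap25 lies at 0.12.

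The rats differed in which of the genes were high. In IGF1 replicate 1, Syt1, Syn1 and Slc17a7 lay 0.21, 0.22 and 0.19 below their own means on the log2 scale (deviations of -0.21, -0.22 and -0.19), while Snap25 lay 0.12 and Vamp2 0.04 above. In IGF1 replicate 2, Snap25 (0.21), Vamp2 (0.18), Slc17a7 (0.14) and Syn1 (0.11) were high and Syt1 (-0.07) was not. IGF1 replicate 4 lay on the other side of the mean from replicate 1 for 4 of the genes, with Syt1 at 0.14, Snap25 at -0.11, Syn1 at 0.05 and Slc17a7 at 0.02. In DsRed replicate 3 all 5 genes lay below their means, by log2 deviations of -0.16 to -0.01, and in DsRed replicate 1 all 5 lay above, at 0.02 to 0.19.

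Ratios between 2 of the genes within a library do not depend on library scaling, and transcript length cancels when the same ratio is compared between rats. For none of the 10 pairs was a difference in log2 ratio between the groups detected beyond the spread between rats. Exact two-sided permutation p lay between 0.114 and 1, and Benjamini-Hochberg adjusted p over the 10 pairs between 0.429 and 1. With 4 rats against 4 the smallest unadjusted p is 0.0286, so an adjusted p under 0.05 needed several pairs at that value. A single pair with fully separated groups could not have passed. The 3 largest differences were those of Snap25 with Slc17a7, Syt1 and Syn1. The Snap25 to Slc17a7 read ratio was 0.994, 0.847, 0.894 and 0.736 across IGF1 replicates 1 to 4, against 0.753, 0.750, 0.770 and 0.732 across DsRed replicates 1 to 4. IGF1 replicates 1, 2 and 3 lay above every DsRed rat and replicate 4 lay within the DsRed range. The mean log2 ratio was -0.21 ± 0.18 with IGF-I and -0.41 ± 0.03 with DsRed (SD, n = 4 each), a difference of 0.20 with an exact permutation p of 0.114 and an adjusted p of 0.429 over the 10 pairs.

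The same 3 IGF1 rats stood on one side of all DsRed rats in the ratios of Snap25 with Syn1 and with Syt1. The Snap25 to Syn1 read ratio was 4.53, 3.84, 3.61 and 3.21 across IGF1 replicates 1 to 4, against 3.46, 3.44, 3.36 and 3.34 across DsRed replicates 1 to 4. The Syt1 to Snap25 read ratio was 0.263, 0.271, 0.323 and 0.393 in the IGF1 rats and 0.338, 0.354, 0.367 and 0.359 in the DsRed rats. In both ratios IGF1 replicate 4 lay past the DsRed range on the other side from its group. The log2 ratios differed by 0.15 (Snap25 to Syn1, exact permutation p = 0.200) and -0.20 (Syt1 to Snap25, exact permutation p = 0.229), each with an adjusted p of 0.429 over the 10 pairs. In these 3 ratios the SD of the log2 ratio was 0.18 to 0.27 among IGF1 rats and 0.02 to 0.05 among DsRed rats. That contrast was not tested. Without IGF1 replicate 4 the differences were 0.28 for Snap25 to Slc17a7, 0.23 for Snap25 to Syn1 and -0.31 for Syt1 to Snap25. Each then had an exact permutation p of 0.0286, the smallest that 3 rats against 4 allow, and an adjusted p of 0.0952 over the 10 pairs. They could have passed an adjusted 0.05 only if more of the 10 pairs had reached that smallest p. Without IGF1 replicate 1 they were 0.13, 0.06 and -0.12, each with an adjusted exact permutation p of 0.776.

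The share of reads outside annotated features moved with the Snap25 to Slc17a7 ratio in the IGF1 group, and largely so in the DsRed group. It was 32.9%, 31.5%, 32.2% and 31.2% in IGF1 replicates 1 to 4, so both measures put these rats in the same order. It was 31.6%, 31.2%, 31.5% and 30.7% in DsRed replicates 1 to 4. Their order by the ratio differed only in that replicates 1 and 3 changed places. The 10 most abundant IDs took 13.6% to 16.6% of the gene reads in IGF1 rats and 11.8% to 13.9% in DsRed rats. The part of either measure in the ratio was not tested.

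**Figure D4:**
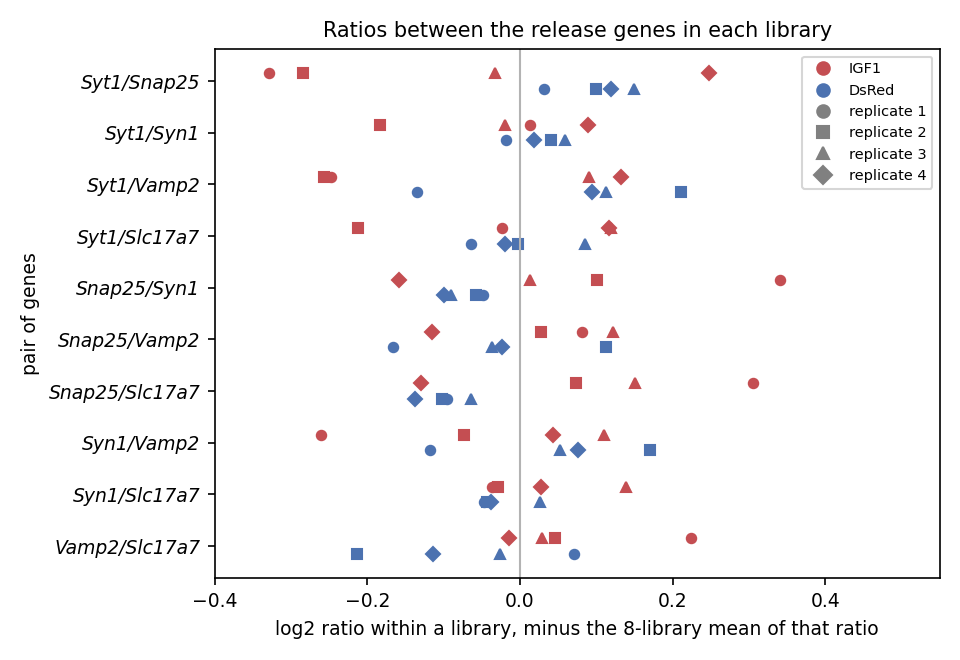
Log2 ratio of each pair of genes within each library, minus the mean of that ratio over the 8 libraries, with IGF1 libraries in red above DsRed libraries in blue and a marker shape for each replicate number. For the pairs of Snap25 with Syt1, Syn1 or Slc17a7 the DsRed libraries lie close together and the IGF1 libraries spread widely. IGF1 replicates 1 to 3 lie on one side of all DsRed libraries, replicate 1 farthest out, and replicate 4 does not.

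Across the 8 rats, Syn1 and Slc17a7 had the highest correlation of the 10 pairs with all libraries included. Pearson's r was 0.852 with an exact permutation p of 0.0031 (0.031 after Benjamini-Hochberg adjustment over 10 pairs), and Spearman's rho was 0.929 with an exact permutation p of 0.00223 (0.0223 adjusted). With each rat taken as a deviation from its group mean, r was 0.868. Without IGF1 replicate 1 and DsRed replicate 3, the 2 rats farthest from the median of Syn1, r was 0.687 (exact permutation p 0.126, 6 rats). Leaving out the extremes of Syn1 narrows its range, which by itself tends to lower r. It therefore cannot show how far the relation rests on those rats. The adjusted p was 0.0521 with libraries scaled by total counts. Leaving out 1 rat gave r of 0.782 to 0.963, with an adjusted exact permutation p under the threshold only without IGF1 replicate 3 (0.00198) or DsRed replicate 4 (0.0159). Without IGF1 replicate 1, 2 or 4 it was 0.2004, 0.0635 and 0.0794, and without DsRed replicate 1, 2 or 3 it was 0.0972, 0.0853 and 0.101. Another pair had a higher r in 2 of these 8 cases, Snap25 with Syn1 (0.828 against 0.782) without IGF1 replicate 1 and Syt1 with Syn1 (0.935 against 0.818) without IGF1 replicate 2. Without the 2 farthest libraries, Syn1 with Vamp2 was higher, at 0.733 against 0.687.

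The other 9 pairs did not pass the adjusted threshold. Syt1 with Syn1 had r of 0.703 and rho of 0.405 (exact permutation p 0.0593 and 0.327, adjusted 0.269 and 0.535), and r of 0.0701 without IGF1 replicates 1 and 4. Without IGF1 replicate 2 its r was 0.935 with an adjusted exact permutation p of 0.0575, and without IGF1 replicate 1 it was 0.120 with 0.793. Snap25 with Vamp2, the SNARE partners, had r of 0.660 and rho of 0.714 (exact permutation p 0.0808 and 0.0576, adjusted 0.269 and 0.288), and r of 0.308 without IGF1 replicate 2 and DsRed replicate 3. Syt1 with Snap25 had r of -0.53 and rho of -0.38 (exact permutation p 0.175 and 0.36, adjusted 0.35 and 0.535), and r of -0.27 without IGF1 replicates 1 and 4. The remaining 6 pairs had r between -0.21 and 0.544, with adjusted exact permutation p of 0.35 to 0.833. Snap25 with Syn1 had r of 0.0927 over all 8 rats and 0.828 without IGF1 replicate 1, with adjusted exact permutation p of 0.833 and 0.2004.

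**Figure D5:**
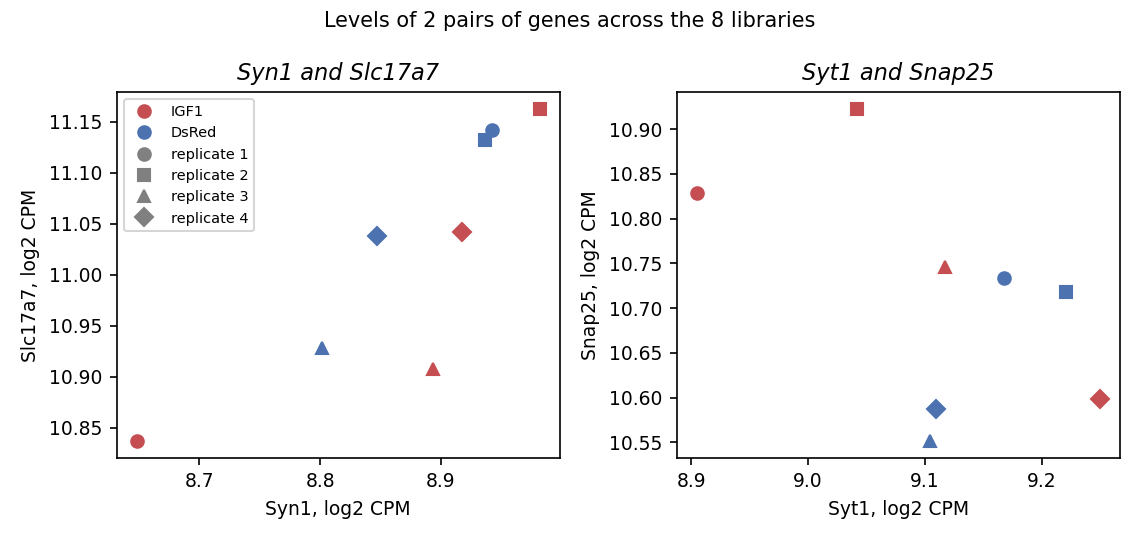
Log2 CPM of Slc17a7 against Syn1 (left) and of Snap25 against Syt1 (right), 1 point per library, with IGF1 in red, DsRed in blue and a marker shape for each replicate number. Syn1 and Slc17a7 follow each other (r = 0.852), with IGF1 replicate 1 lowest on both axes, and for Syt1 and Snap25 r was -0.53 and did not pass the threshold.

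The 2 IDs whose pattern was most like that of the 5 genes were sought by Pearson's r with the mean of their standardised log2 CPM over the 8 libraries, among the 12692 other IDs averaging a log2 CPM of 1 or more. They were ENSRNOG00000003207 (r = 0.970, rho = 0.976) and ENSRNOG00000008825 (r = 0.967, rho = 0.976), given as descriptions because they were picked as the highest of all. ENSRNOG00000003207 read 155, 191, 169 and 183 CPM across IGF1 replicates 1 to 4, against 183, 177, 160 and 166 CPM across DsRed replicates 1 to 4. Like Syn1 and Slc17a7, it was lowest in IGF1 replicate 1 and highest in IGF1 replicate 2. Its log2 fold change was 0.03 with an adjusted p of 0.948 by edgeR's quasi-likelihood test, and that of ENSRNOG00000008825 was -0.01 with an adjusted p of 0.973. An r of at least 0.9 was reached by 38 IDs (0.299%). Of the genes that made up the mean, Slc17a7 (0.909) and Syn1 (0.883) were closest to it and Snap25 (0.419) and Syt1 (0.454) farthest, with Vamp2 at 0.662.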

How the data were processed

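Libraries were made with the Illumina TruSeq RNA kit from 500 ng of total RNA, per the labels' protocols. CASAVA 1.8.2, edgeR, HTSeq and STAR appear, with no roles, among the submitters' processing notes. Genome build, annotation and strandedness were not given in the sources used here. Reads of overlapping genes may therefore be shared or lost. The deposited counts are whole reads per Ensembl ID in 1 column per rat. Of 3 summary rows, left out of library sizes, 2 held 0, and the one for reads outside features is given in the report. The deposited normalised signal, linear although named as log2, covers 13595 IDs. Alternatives used it as log2(value + 1) or log2(value + 0.5), where changes of low genes come out too small.

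Groups came from sample titles and columns from sample descriptions. IDs were kept by filterByExpr (minimum count 10, total 15), scaled by TMM and tested with glmQLFit and glmQLFTest (edgeR 4.0.16, R 4.3.3, group only, two-sided, Benjamini-Hochberg over all 14522 IDs, threshold 0.05), after a check on simulated data. Standard errors are log2 fold changes divided by the root of F. Log2 CPM used a prior count of 2. Exact permutations covered all 70 label assignments or 40320 pairings. Limma 3.58.1 and DESeq2 1.42.0 were alternatives. No 2 libraries were the same library (chi-square per degree of freedom 5.74 to 54.1 over 28 pairs).

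The genes named were the 5 and the 2 IDs most like them. Symbols of the 5 came with the gene list. The rat gene table matched 0 IDs, so the lists of other release genes and cell type markers, drawn up by symbol, were not used. Members and lists were chosen with earlier results of these data known. Promoter sequences are from RefSeq, build GRCr8.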

Additional observations from a re-analysis of the deposited data

Results flagged for a closer look

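Single libraries far from their group were looked for in 32 sets of 4 libraries (levels of the 5 genes, their 10 ratios and their summed share of reads, in each group). A value was taken as far when its gap to the nearest library exceeded 0.829 of the group's range, and 3 did. Chance gives about 1 in 20 such sets, and the sets share the same counts. Vamp2 in DsRed replicate 1 stood at 1245 CPM, against 1003 to 1019 CPM in the other DsRed libraries. The log2 ratio of Syn1 to Slc17a7 in DsRed replicate 3 was -2.13, against -2.20 to -2.19 in the rest of that group. The 5 genes took 0.628% of the gene reads in IGF1 replicate 2, against 0.566% to 0.575% in the other IGF1 libraries.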

How the results depend on the processing

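Of the 5 genes 0 passed the threshold under any of the 24 alternatives, and their adjusted p in edgeR, DESeq2 and limma lay between 0.503 and 1. The alternative without the 10 most abundant IDs was chosen after seeing the data. Log2 fold changes ranged from -0.13 to -0.01 for Syt1, 0.08 to 0.19 for Snap25, 0.02 to 0.15 for Vamp2, -0.058 to 0.0675 for Syn1 and -0.13 to 0.00514 for Slc17a7. Signs turned without both libraries numbered 1 for Syn1 (0.0675) and Slc17a7 (0.00514), and leaving out 1 library gave -0.058 to 0.0496 for Syn1. Over all IDs, calls numbered 13 with DESeq2 (20653 IDs, no low count filter), 11 with edgeR's exact test and 11 with its likelihood ratio test. The quasi-likelihood test called 0, and leaving out 1 library gave 0 to 1. At an unadjusted p under 0.05 the quasi-likelihood test listed 958 IDs, 626 without DsRed replicate 2 and 1439 without IGF1 replicate 4. No pair ratio passed under any of its 10 alternatives, where at best a pass needed several pairs at the smallest exact permutation p. For these ratios, leaving out 1 library gave -0.0887 to 0.00204 for Syt1 to Syn1 and -0.0392 to 0.0711 for Syt1 to Slc17a7. Of the correlations, the number passing was 1, and 0 without the 2 farthest libraries, 0 with total count scaling and 0 to 1 without 1 library. Signs turned without the 2 farthest libraries for Snap25 with Syn1 (-0.50), Snap25 with Slc17a7 (-0.47) and Vamp2 with Slc17a7 (-0.39), and with total count scaling for Snap25 with Syn1 (-0.14) and Snap25 with Slc17a7 (-0.0294). Leaving out 1 library gave -0.28 to 0.828 and -0.22 to 0.553 for these last pairs. Fewer libraries lower the power by construction, and the cause of the other differences was not tested.

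A replicate block on the number, added to the quasi-likelihood fit, left 0 calls over all IDs and 0 among the 5 genes, with a log2 fold change of 0.13 for Snap25. A sign-flip over same-numbered pairs, also a replicate block, passed 0 of the 10 ratios, since 4 pairs allow no p under 0.125. Between same-numbered libraries the deviations had correlations of 0.0548, 0.126, 0.244 and 0.134. No pairing was assumed in the main fit, since the shared numbers name no shared litter or day. The rule for pairing also asked for a value over 0.1 in every pair, which the libraries numbered 1 missed, although 6 of the 8 libraries correlated best with their own number.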
